A study of Mus musculus with 4 samples.

Results

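Keratins and epithelial junction genes are the transcripts by which a carcinoma cell is recognised as epithelial. The set described here has 10 members of the 32285 genes in the count matrices, taken by gene symbol: the type II keratins Krt5, Krt7 and Krt8, the type I keratins Krt14, Krt15, Krt18 and Krt19, and the junction genes Epcam, Cdh1 and Cldn4. Their counts were read in sorted tumour cells, with sorted immune cells of the same brains as background.

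The groups were SCDi tumour cells, CTRL tumour cells, SCDi immune cells and CTRL immune cells, with 1 library each. All groups came from female, immunocompetent C57BL/6 mice carrying intracranial tumours of EO771, a mouse mammary cancer cell line that here expressed GFP. SCDi mice received an inhibitor of stearoyl-CoA desaturase for 14 days and CTRL mice received vehicle. Neither the compound and dose nor the age of the mice is stated in the labels. Brains of 3 mice per treatment were pooled before sorting, tumour cells as DAPI-/CD45-/GFP+ and immune cells as DAPI-/CD45+/GFP-, and each sort became a droplet library of 3' transcript counts. With 1 pooled library per group there is no replicate, so no difference was tested across animals. Ranges in parentheses are 95% intervals that cover counting error only.

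Keratins are the intermediate filament proteins of epithelial cells, and each filament is built from pairs of 1 type I and 1 type II chain. Krt8 pairs with Krt18 or Krt19 in simple and luminal epithelia such as the milk-producing layer of the mammary gland, while Krt5 pairs with Krt14 in its basal layer. E-cadherin, the product of Cdh1, joins neighbouring epithelial cells at adherens junctions, claudins such as Cldn4 seal tight junctions, and EpCAM is an epithelial surface glycoprotein long used to capture carcinoma cells.

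After filtering, 8262 SCDi and 7009 CTRL tumour cells were kept, with medians of 36407 and 41512 unique molecular identifiers (UMIs, each 1 captured transcript) per cell. The immune sorts kept 6120 SCDi and 6572 CTRL cells, with medians of 16595 and 15367 UMIs. Between any pair of libraries, 9 to 19 kept barcodes were identical, at most 0.289% of a library. Ptprc, which encodes CD45, had 0 UMIs in SCDi tumour cells and 12 UMIs in 6 CTRL tumour cells, and was found in 98.1% of SCDi and 96.7% of CTRL immune cells.

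The tumour cells carried 1 abundant member and 9 scarce ones. Krt8 stood at 1406 CPM (its UMIs scaled to a library total of 1000000) in SCDi and 1483 CPM in CTRL tumour cells, and Krt18 at 16.3 and 17.98 CPM. Krt14, Cdh1, Cldn4, Krt7, Epcam and Krt19 followed at 3 CPM or less in either tumour library. No UMI of Krt5 or Krt15 was found in any of the 4 libraries. Of the 10 members, 8 had tumour UMIs, 4 reached 1 CPM and 2 reached 5 CPM in a tumour library.

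**Figure D1:**
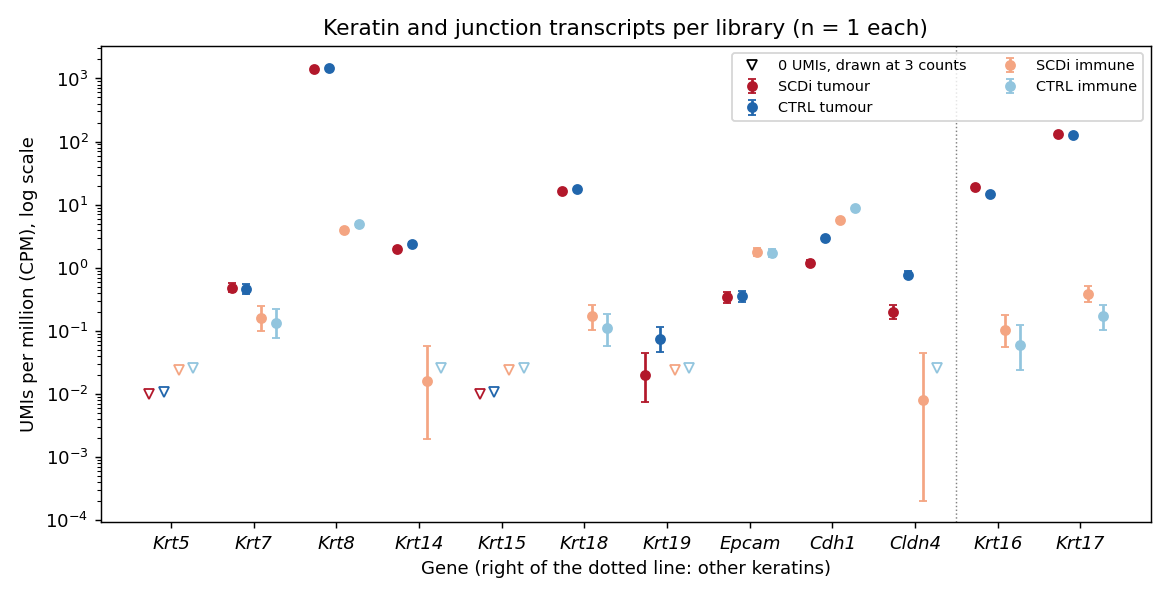
Level of each member, and of Krt16 and Krt17, in the 4 libraries (CPM, log axis). Points are libraries with 95% Poisson intervals, and open triangles are libraries with 0 UMIs, drawn at the level of 3 counts. Krt8 lies far above every other member in both tumour libraries, while Epcam and Cdh1 lie higher in the immune libraries than in the tumour libraries.

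Krt8, a type II keratin (ENSMUSG00000049382, chromosome 15, 101996698 to 102004482, minus strand), was the one member found in almost every tumour cell. Its 419319 UMIs in SCDi and 420551 UMIs in CTRL lay in 96.4% (96.0 to 96.8) and 98.0% (97.6 to 98.3) of the cells. Cells with at least 2000 UMIs were thinned to 2000 UMIs each, a common depth, which left out 954 SCDi and 451 CTRL cells with fewer. The thinned shares were 90.2% (89.5 to 90.9) in SCDi and 91.7% (91.0 to 92.3) in CTRL. The intervals of these thinned shares did not overlap, and the share was 1.44 percentage points lower in SCDi.

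The immune sorts gave the background for Krt8. There it had 492 UMIs in SCDi and 577 UMIs in CTRL, at 3.97 and 4.88 CPM, and thinned shares of 0.533% and 0.543%. Krt8 was therefore 354-fold (324 to 388) higher in tumour than in immune cells of the SCDi mice and 304-fold (280 to 330) higher in those of the CTRL mice. A few immune barcodes held much of the immune signal. Barcodes with at least 10 Krt8 UMIs numbered 6 in SCDi and 7 in CTRL, carried 42.5% and 65.7% of the immune Krt8 UMIs, and included 1 and 2 barcodes with a Ptprc UMI. Most immune Krt8 UMIs, 73.6% in SCDi and 89.4% in CTRL, lay in the 2546 and 2715 cells of clusters that were not named. Among named classes with at least 100 cells, the unthinned share of cells with a Krt8 UMI was highest in macrophage-like cells. It was 11.5% in SCDi and 4.95% in CTRL, against 1.13% and 1.15% in monocyte-like cells. Macrophage-like cells held 18.3% and 3.99% of the immune Krt8 UMIs. They were also deeper, with medians of 26366 and 21331.5 UMIs against 15025 and 15015.5 in monocyte-like cells.

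Tumour barcodes without Krt8 were mostly shallow. There were 296 in SCDi (3.58%) and 142 in CTRL (2.03%), with medians of 902.5 and 1084 UMIs. Among cells with at least 5000 UMIs, 13 of 7155 in SCDi and 26 of 6326 in CTRL had no Krt8 UMI. All 7 endothelial markers, such as Pecam1 and Cldn5, were detected in those deeper Krt8-negative cells, at a summed 5400 CPM in SCDi and 5729 CPM in CTRL, against 23.9 and 26.9 CPM in cells of that depth with Krt8. Macrophage markers were also higher in them, with 2 of 8 detected at a summed 152 CPM in SCDi and 7 of 8 at 853 CPM in CTRL, against 8.44 and 11.9 CPM with Krt8. In SCDi the macrophage list did not stand out among immune lists. Type 1 conventional dendritic markers stood there at 341 CPM and migratory dendritic markers at 233 CPM, against 48.2 and 121 CPM with Krt8. The T cell, NK and B cell lists were at 0 CPM in those SCDi cells. Leukocyte markers stood at 26.9 CPM in SCDi, with Ptprc at 0, and at 132 CPM in CTRL, against 3.62 and 2.42 CPM.

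At a common depth Krt8 varied over a moderate range between cells. In the 6708 SCDi and 5789 CTRL cells with at least 20000 UMIs, thinned to that number, the mean was 27.8 ± 11.2 UMIs in SCDi and 29.9 ± 11.4 UMIs in CTRL (SD over cells). The middle 90% of cells held 12 to 48 UMIs in SCDi and 14 to 50 UMIs in CTRL, and 0 SCDi cells and 1 CTRL cell had none. The variance was 4.49 times the mean in SCDi and 4.32 times in CTRL, above the value of 1 that pure sampling gives. The highest single cell, unthinned, held 338 UMIs in SCDi and 446 UMIs in CTRL.

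**Figure D2:**
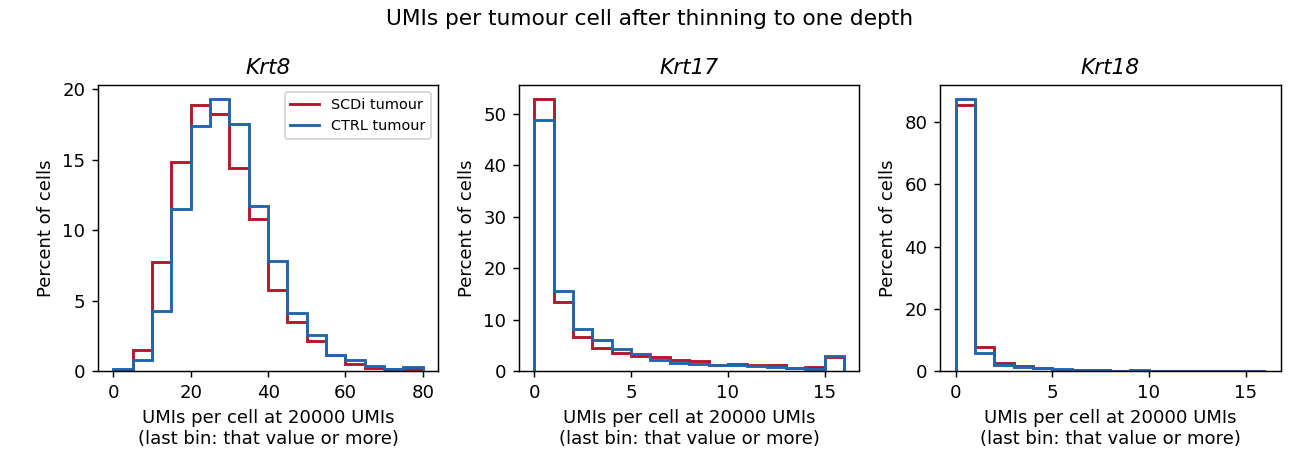
Percent of tumour cells (vertical axis) by UMIs per cell after thinning to 20000 UMIs (horizontal axis, last bin open) for Krt8, Krt17 and Krt18, SCDi in red and CTRL in blue. Krt8 forms a single broad peak with medians of 26 UMIs in SCDi and 29 UMIs in CTRL, whereas most cells have no Krt18 UMI.

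Krt18, the usual type I partner of Krt8 (ENSMUSG00000023043, chromosome 15, 102028180 to 102032027, plus strand), was scarce by comparison. It had 4862 UMIs in SCDi and 5098 UMIs in CTRL tumour cells, in 17.4% (16.6 to 18.3) and 16.3% (15.4 to 17.1) of the cells. Thinned to 2000 UMIs the shares were 2.80% (2.44 to 3.21) in SCDi and 2.94% (2.55 to 3.38) in CTRL. Immune cells held 21 UMIs in SCDi and 13 UMIs in CTRL, so tumour cells stood 96.2-fold (62.8 to 156) and 164-fold (95.6 to 307) above them.

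The ratio of Krt8 to Krt18 UMIs was 86.2 (83.8 to 88.7) in SCDi and 82.5 (80.2 to 84.8) in CTRL tumour cells. UMIs count 3' ends and need no scaling by transcript length, but how well each gene's end was captured and counted was not tested. The annotation also lists a processed pseudogene of Krt8, Krt8-ps, and the labels do not say how reads that match both were treated. The imbalance held inside single cells. Of the 1439 SCDi and 1140 CTRL cells with a Krt18 UMI, 1436 and 1138 also had Krt8, and Krt18 exceeded Krt8 in 3 and 2. The median of the ratio within those cells, which are chosen for having Krt18, was 28 in SCDi and 25.1 in CTRL.

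Krt18 UMIs were concentrated in few cells. Cells with at least 10 Krt18 UMIs were 1.32% of SCDi cells (109) and 2.28% of CTRL cells (160), and they carried 31.7% and 48.5% of all Krt18 UMIs. In those cells the median was 13 Krt18 and 67 Krt8 UMIs in SCDi, and 14 Krt18 and 101.5 Krt8 UMIs in CTRL. Krt8 thus remained above Krt18 at the median even where Krt18 was highest. A single Krt18 UMI was all that was seen in 46.0% of the SCDi and 40.8% of the CTRL cells that had any.

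Across cells the levels of the pair showed little correlation, which in counts as sparse as those of Krt18 is no finding. The correlation of log2(UMIs per 10000 + 1) between Krt8 and Krt18 was 0.05 over the 8262 SCDi cells and 0.09 over the 7009 CTRL cells, a description in which all cells of a library share its preparation. Krt18 ranked 2655 of 10812 genes by likeness to Krt8 over all kept cells and 962 over cells with at least 20000 UMIs. Krt8 ranked 33 and 16 by likeness to Krt18, where all correlations were low. The gene closest to Krt8 was Anxa2, which encodes the membrane-binding protein annexin A2. Its mean correlation was 0.35 over all kept cells and 0.51 over cells with at least 20000 UMIs. Emp3, which encodes a membrane protein, and the glycolytic enzyme genes Gapdh, Tpi1 and Pkm came next over all kept cells. Over all kept cells the gene most like Krt18 was Ddah1, an enzyme of methylarginine breakdown, at 0.13. Over cells with at least 20000 UMIs it was Tmsb10, at 0.16. These values are too weak in sparse counts to set a gene apart.

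The pair are genomic neighbours. Krt18 is the one type I keratin gene that lies in the type II keratin cluster, and 23697 bases separate it from Krt8, with the genes pointing away from each other. The sequence before the start of Krt18 is shown because this gene had so few transcripts beside its neighbour. It comes from RefSeq (GRCm38.p6), read 5′ to 3′ on the gene's strand, with capitals marking the E-box CACCTG, the motif bound by repressors of the Snail and Zeb families. It covers chr15:102027966-102028179 on the plus strand and ends just before the gene's start in GENCODE M21.
Krt18: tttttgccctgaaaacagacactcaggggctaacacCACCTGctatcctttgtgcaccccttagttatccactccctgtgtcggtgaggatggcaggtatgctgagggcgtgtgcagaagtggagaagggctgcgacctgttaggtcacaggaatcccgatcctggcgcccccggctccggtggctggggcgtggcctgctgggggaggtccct
Krt18 has 1 E-box in the 250 bases before its RefSeq start, searched on both strands, and 17.2% of 32851 mouse promoters hold at least 1. It has no TATAAA, found in 12.4% of promoters, nor the AP-1 motif TGACTCA, found in 4.46%. These letters describe the window and say nothing of which factors bind there.

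Other keratins supplied most type I transcripts. Over all 53 keratin genes, 25 of type II and 28 of type I, the ratio of type II to type I UMIs was 8.37 (8.29 to 8.45) in SCDi and 9.28 (9.19 to 9.37) in CTRL tumour cells, against the 86.2 and 82.5 of the Krt8 and Krt18 pair alone. Krt17, a type I keratin of basal and wounded epithelia, made up 77.8% of type I UMIs in SCDi and 78.0% in CTRL. Krt16, a wound-associated type I keratin, made up 11.2% and 9.14%, Krt18 9.69% and 11.2%, and Krt14 1.19% and 1.49%. On the type II side Krt8 alone held 99.8% of UMIs in either library.

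Of the basal keratins Krt14, Krt5 and Krt15, only Krt14 had UMIs in tumour cells. Krt14, the type I keratin of basal and myoepithelial cells, had 596 UMIs in SCDi and 676 UMIs in CTRL, at 2.00 (1.84 to 2.17) and 2.38 (2.21 to 2.57) CPM, in 4.88% and 5.92% of tumour cells. Immune cells held 2 UMIs of it in SCDi and 0 in CTRL. Krt5, its type II partner, and Krt15, a type I keratin of basal and stem-like epithelial cells, had 0 UMIs. For each, 0 of 8262 SCDi cells allows a share of up to 0.0363% of cells with a UMI, and 0 of 7009 CTRL cells up to 0.0428%.

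The luminal keratins Krt7 and Krt19 were rare. Krt7, a type II keratin of ductal epithelia, had 145 UMIs in SCDi and 131 UMIs in CTRL, in 1.57% and 1.67% of tumour cells. It was 3.01-fold (1.88 to 5.08) and 3.42-fold (2.03 to 6.15) above the immune sorts, which held 20 and 16 UMIs. Krt19, a type I keratin of luminal cells, had 6 UMIs in SCDi and 21 UMIs in CTRL tumour cells and 0 in immune cells. After thinning, the Krt7 shares in tumour cells (0.0968% in SCDi and 0.0931% in CTRL) lay within the intervals of the immune shares (0.0410%, up to 0.120%, and 0.0294%, up to 0.114%).

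Epcam and Cdh1 were lower in the tumour sort than in the immune sort. Epcam (ENSMUSG00000045394, chromosome 17, 87635979 to 87651129, plus strand) had 101 UMIs in SCDi and 100 UMIs in CTRL tumour cells, at 0.339 and 0.353 CPM, in 1.19% (0.964 to 1.44) and 1.40% (1.14 to 1.70) of cells. The immune libraries held 221 UMIs in SCDi and 202 UMIs in CTRL. In CPM, Epcam was 5.27-fold (4.14 to 6.73) higher in immune than in tumour cells with SCDi and 4.84-fold (3.79 to 6.22) higher with CTRL. No tumour cell had more than 2 Epcam UMIs.

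Cdh1 (ENSMUSG00000000303, chromosome 8, 106603351 to 106670246, plus strand) had 354 UMIs in SCDi and 826 UMIs in CTRL tumour cells, at 1.19 (1.07 to 1.32) and 2.91 (2.72 to 3.12) CPM. Cells with a UMI were 2.72% (2.38 to 3.10) in SCDi and 6.48% (5.91 to 7.08) in CTRL, and 0.249% (0.146 to 0.389) and 0.522% (0.359 to 0.724) after thinning to 2000 UMIs, where the intervals overlapped. The immune libraries held 717 and 1036 UMIs, 4.88-fold (4.29 to 5.55) and 3.01-fold (2.74 to 3.30) more in CPM than the tumour cells. None of the 225 SCDi and 454 CTRL tumour cells with Cdh1 had a Ptprc UMI.

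In the immune sorts 2 dendritic classes held most UMIs of both genes, except for Epcam in CTRL. Plasmacytoid dendritic-like cells (94 in SCDi and 106 in CTRL) had Cdh1 in 78.7% and 84.0% of cells and Epcam in 35.1% and 25.5%. Type 2 conventional dendritic-like cells (292 and 356) had Cdh1 in 25% and 27.5% and Epcam in 12.3% and 5.90%. Together these classes held 68.2% of Cdh1 UMIs and 71.9% of Epcam UMIs in the SCDi immune library, and 64.5% and 48.5% in the CTRL immune library. Epcam was also seen in 8.26% of SCDi and 10.7% of CTRL T cell-like cells. That class was a cluster of 373 cells whose top genes included Foxp3 and Ctla4. Another cluster, of 733 cells with both T cell and NK markers, was left unnamed. The unnamed clusters together had Epcam in 0.314% of SCDi and 0.479% of CTRL cells. B cell-like cells had it in 5.23% and 7.57%, and NK-like cells in 1.14% and 4.15%. Of 1415 SCDi and 1392 CTRL monocyte-like cells 0 had an Epcam UMI, so Epcam was not spread evenly over the classes. Cdh1 in monocyte-like cells was at 2.97 CPM in SCDi and 6.89 CPM in CTRL, above its level in tumour cells.

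**Figure D3:**
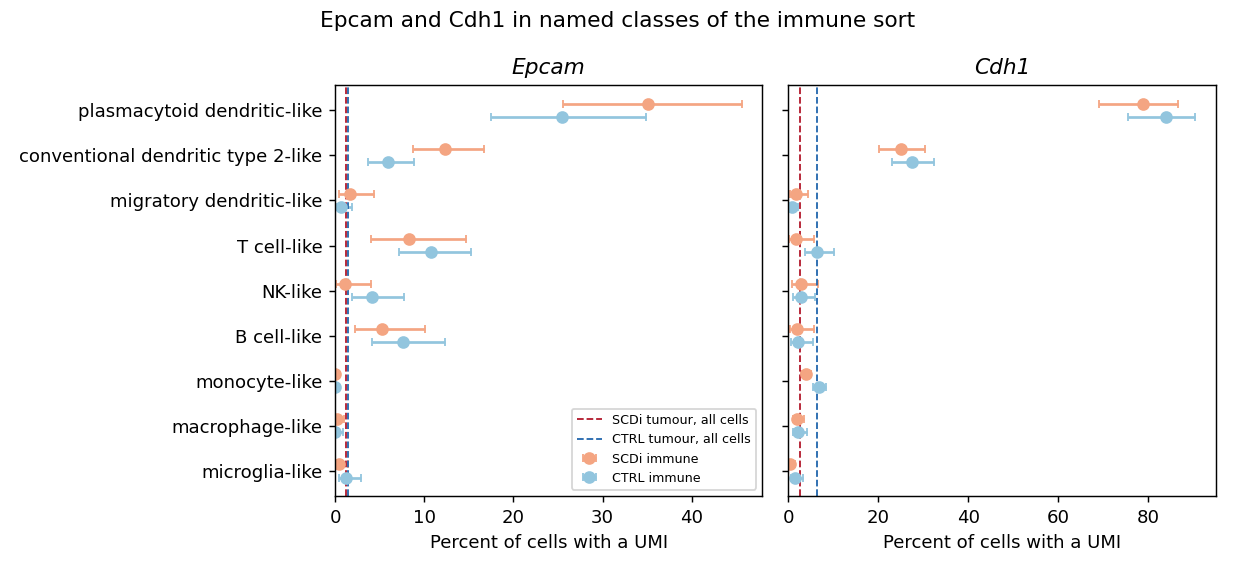
Percent of cells with an Epcam or Cdh1 UMI in named classes of the SCDi and CTRL immune sorts, with 95% exact binomial intervals; dashed lines give the share over all tumour cells. Both genes peak in plasmacytoid dendritic-like cells, where Cdh1 reaches 78.7% in SCDi and 84.0% in CTRL.

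Cldn4 (ENSMUSG00000047501, chromosome 5, 134945119 to 134946934, minus strand) was the junction gene with a higher CPM in the tumour sort than in the immune sort. It had 60 UMIs in SCDi and 220 UMIs in CTRL tumour cells, in 0.617% (0.460 to 0.811) and 1.83% (1.53 to 2.17) of cells, against 1 and 0 UMIs in immune cells. Thinned to 2000 UMIs the tumour shares were 0.0393% (0.00847 to 0.120) in SCDi and 0.146% (0.0731 to 0.280) in CTRL, and these intervals overlapped. The SCDi tumour share lay within the interval of the SCDi immune share, which reached 0.0614%. In CTRL the tumour interval lay above that of the immune share, which reached 0.0581%. The fold over immune cells was 24.9 (4.31 to 1001) in SCDi and at least 30.6 in CTRL, taking 0 as 3 counts over the library. The 10 cells with most Cldn4 carried 31.7% of its UMIs in SCDi and 33.2% in CTRL, and the highest cell had 4 UMIs in SCDi and 20 UMIs in CTRL.

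Of the 7 members with at least 0.2 CPM in either sort, 4 were over 10-fold higher in the tumour sort with either treatment, namely Krt8, Krt14, Krt18 and Cldn4. The background was 9.6% of 17022 genes in SCDi and 8.97% of 17175 genes in CTRL. None was 10-fold lower in the tumour sort, where 16.5% and 17.3% of those genes were.

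The comparison of the tumour libraries asks how these genes stood under desaturase inhibition. Cdh1 and Cldn4 were lower in SCDi, while Krt8, Krt18 and Krt14 were close to their CTRL levels and the intervals of Krt7 and Epcam included 0. The Cdh1 log2 ratio of SCDi over CTRL was -1.29 (-1.48 to -1.11) and that of Cldn4 was -1.94 (-2.38 to -1.53). Those of Krt8, Krt18 and Krt14 were -0.08 (-0.08 to -0.07), -0.14 (-0.20 to -0.08) and -0.25 (-0.42 to -0.09). For Krt7 the log2 ratio was 0.07 (-0.28 to 0.43) and for Epcam -0.06 (-0.47 to 0.36), and averaged over the CPM of single cells they were 0.56 and 0.10. Krt19, with 6 against 21 UMIs, had -1.80 (-3.48 to -0.52). In cells with no Mki67 or Top2a UMI, whose median depth was 2161 UMIs in SCDi and 27743 UMIs in CTRL, the ratios of Krt18, Krt14 and Krt19 had the opposite sign, at 0.42, 0.96 and 0.18.

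At a threshold of 1.5-fold, 2 of the 7 members with at least 0.2 CPM were lower in SCDi (Cdh1 and Cldn4) and 0 were higher, where 3.92% of 14427 genes were lower and 3.48% higher, 7.4% in all. At 5 CPM or more, where counting error is small, only Krt8 and Krt18 remained among the members and 0 of them passed, where 1.49% of 9484 genes did, 0.896% lower and 0.59% higher in SCDi. The median log2 ratio of those 9484 genes was -0.04. Cdh1 was lower in the SCDi immune library too, with a log2 ratio of -0.60 (-0.74 to -0.46), where its UMIs come from other cell types. The part that free RNA or the make-up of each sort has in the Cdh1 ratio was not tested.

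The bases before the start of Cldn4 are shown because it had the largest ratio among the members with at least 0.2 CPM. The stretch is chr5:134946935-134947184 on the minus strand (RefSeq, GRCm38.p6), with capitals for the E-box, the AP-1 motif and the GC box (GGGCGG on either strand).
Cldn4: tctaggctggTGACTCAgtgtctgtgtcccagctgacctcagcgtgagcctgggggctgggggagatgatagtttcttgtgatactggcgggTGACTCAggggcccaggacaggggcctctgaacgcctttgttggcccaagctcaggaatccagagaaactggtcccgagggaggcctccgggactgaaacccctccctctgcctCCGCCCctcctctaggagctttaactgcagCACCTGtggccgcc
This window has 2 AP-1 motifs, 1 E-box and 1 GC box, motifs found at least once in 4.46%, 17.2% and 32.7% of promoters. Among the windows searched for 6 members, 5, all but that of Krt14, have the E-box, against 17.2% of 32851 promoters. The 5 include Krt5, which had 0 UMIs, so the motif does not sort the members by level. For Krt7 and Krt14 the window lies wholly inside the gene as GENCODE M21 draws it.

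Tumour cells formed 16 clusters, of which 12 held 50 cells or more of each library. Cdh1 was lower in SCDi in 11 of the 12, with 8 intervals below 0, and Cldn4 in 12 of 12, with 5 intervals below 0. Some Cldn4 ratios rest on very few UMIs. SCDi and CTRL held 1 and 1 in cluster 11, 1 and 2 in cluster 5, and 0 and 2 in cluster 12. Krt8 was lower in 9 of 12 and its ratios spanned only -0.29 to 0.06. Krt18 went both ways. It was lower in 8 clusters, with 5 intervals below 0, and higher in 4, with an interval above 0 in cluster 7 (15.2 CPM in SCDi and 10.5 CPM in CTRL, log2 ratio 0.53) and in cluster 10 (22.5 and 14.2 CPM, 0.67).

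Some clusters belonged mostly to 1 library. Cluster 1 had 723 SCDi and 53 CTRL cells, and held 1 Cdh1 UMI in SCDi against 30 UMIs in CTRL. Krt17 stood there at 354 CPM in SCDi and 359 CPM in CTRL, and Krt18 at 6.39 and 17.7 CPM. Cluster 9, with 466 SCDi and 1119 CTRL cells, had Cdh1 in 8.80% of SCDi and 14.3% of CTRL cells. The mean of the Cdh1 ratios over the 12 clusters was -1.59, and -1.02 without cluster 1, whose own ratio was -7.91, beside the -1.29 of the summed cells. Clusters were built from 2000 variable genes of the same cells, and which members were among those genes is not given here. These ratios therefore describe where the difference lies and are no separate evidence of it.

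**Figure D4:**
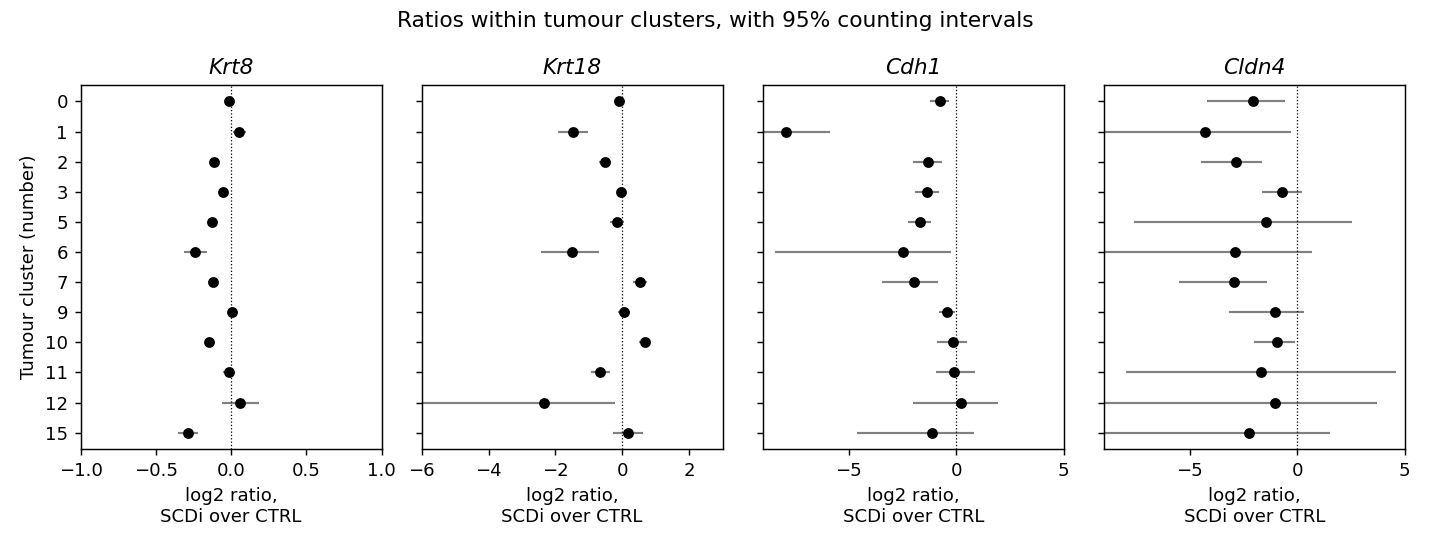
Log2 ratio of SCDi over CTRL for Krt8, Krt18, Cdh1 and Cldn4 within each of the 12 tumour clusters that hold 50 cells or more of each library; lines are 95% counting intervals, and some run past the axis. Cldn4 lies below 0 in all 12, in some on very few UMIs, and Cdh1 in 11. Krt8 stays near 0 and Krt18 scatters to both sides.

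RNA levels by chromosome and proliferation genes were read beside these ratios, and DNA copy number was not measured. Between the tumour libraries the median log2 ratio was -0.12 over 344 genes on chromosome 8, which carries Cdh1, 0.01 over 397 genes on chromosome 5, which carries Cldn4, and 0.04 over 247 genes on chromosome 15, which carries Krt8 and Krt18. The 7308 SCDi and 6558 CTRL cells with at least 2000 UMIs were read for the proliferation genes Mki67 and Top2a. Those with a UMI of either gene among 2000 drawn UMIs numbered 3006 in SCDi and 2127 in CTRL. Krt8 was lower in them, at 1322 CPM in SCDi and 1343 CPM in CTRL, than in cells without one, at 1472 and 1561 CPM. In cells without one Cdh1 was at 1.19 CPM in SCDi and 3.16 CPM in CTRL, and Cldn4 at 0.250 and 0.924 CPM.

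Co-detection of the scarce members was read in cells with at least 20000 UMIs, as the number of cells expected over all draws of that many UMIs. Most cells showed Krt8 alone. In 1 draw, no further member was seen in 79.9% of SCDi and 78.6% of CTRL cells, 1 further member in 19.0% and 19.95%, 2 in 1.09% and 1.36%, and 3 or more in 2 SCDi and 6 CTRL cells. Among 15 pairs of scarce members, 4 in SCDi and 2 in CTRL had under 0.5 expected cells with both.

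Krt18 and Cdh1 were found together less often than the product of their shares. Both were expected in 4.92 SCDi cells, against 17.8 from the product, and in 8.31 CTRL cells, against 29.8. Cdh1 was present in 0.511% (0.169 to 1.21) of SCDi cells with Krt18 and 2.07% (1.72 to 2.47) of those without, and in 1.13% (0.472 to 2.14) and 4.49% (3.94 to 5.10) in CTRL. With the product taken inside each cluster and summed, the observed number was 0.258 of it in SCDi and 0.262 in CTRL, near the 0.277 and 0.279 over all cells. It was the only one of the 15 pairs with lower co-detection whose intervals did not overlap, in SCDi and in CTRL alike.

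Krt18 and Cldn4 went the other way in CTRL, where Cldn4 was present in 2.17% (1.25 to 3.52) of cells with Krt18 and 0.862% (0.633 to 1.17) of those without. In SCDi the values were 0.579% (0.229 to 1.35) and 0.335% (0.199 to 0.516), and the intervals overlapped. Krt14, Krt7 and Epcam had overlapping intervals with and without Krt18 in both libraries.

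**Figure D5:**
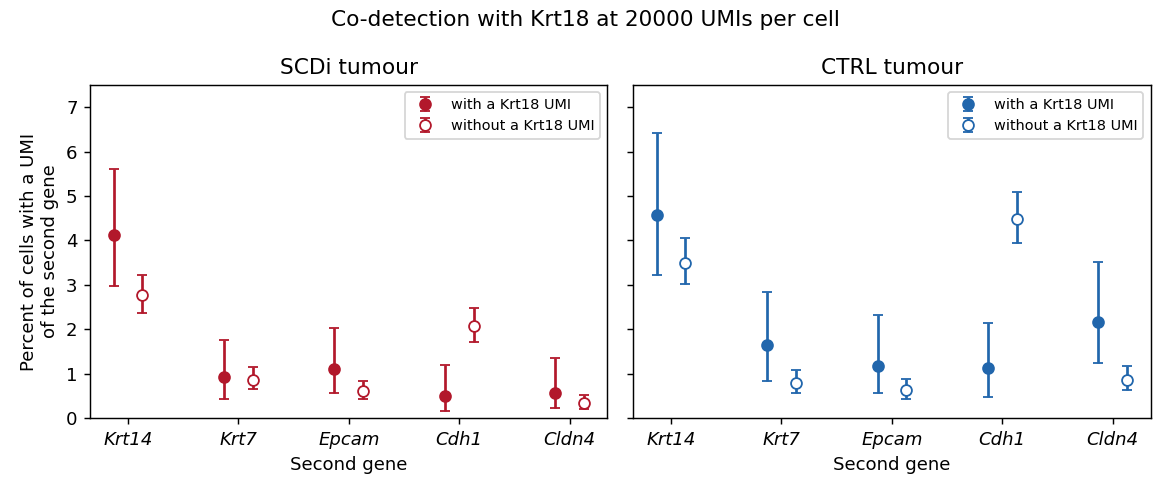
Percent of tumour cells with a UMI of a second member among cells with (filled) and without (open) a Krt18 UMI, at 20000 UMIs per cell, SCDi on the left and CTRL on the right, with 95% binomial intervals. Cdh1 is rarer where Krt18 is present, at 0.511% against 2.07% in SCDi and 1.13% against 4.49% in CTRL.

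Krt17 and Krt16 were seen more often with Krt14, and Krt17 less often with Cdh1. Krt17 was present in 87.5% of SCDi cells with Krt14 and 46.2% of those without, and in 87.1% and 49.95% in CTRL. Krt16 was present in 48.2% and 17.9% in SCDi, and 42.1% and 15.5% in CTRL. With Cdh1 the order was turned, since Krt17 was present in 28.7% of SCDi cells with Cdh1 and 47.8% of those without, and in 33.5% and 52.1% in CTRL. The intervals were apart in each of these comparisons. They were made over all cells and not within clusters, between which these genes differ. In SCDi, cluster 1 had Krt17 in 97.0%, Krt14 in 13.6% and Cdh1 in 0.138% of cells. Cluster 9 had them in 41.8%, 3.22% and 8.80%. The part of cluster make-up in these pairs was not tested. Krt8 averaged 34.1 UMIs in SCDi cells with Cdh1 and 27.7 UMIs in those without, and 32.6 and 29.8 UMIs in CTRL, so cells with Cdh1 were not low in Krt8.

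Lists of related genes give the setting, counted among genes with at least 5 CPM in a tumour library, of which 41.7% over the whole table were higher in SCDi. Of 13 tight junction genes 3 were measured and 3 were lower in SCDi. They include Cldn12, a claudin, at 4.07 CPM in SCDi and 5.04 CPM in CTRL (-0.31), and the scaffold gene Tjp1, at 67.1 and 70.6 CPM (-0.07), while claudins such as Cldn1, Cldn3 and Cldn7 were under the filter. Of 11 adherens junction and catenin genes 8 were measured and 7 were lower, with a median log2 ratio of -0.13, against -0.04 for all genes. They include Ctnnd1, which encodes the p120 catenin that binds E-cadherin, at 55.2 CPM in SCDi and 70.0 CPM in CTRL (-0.34), and Ctnnb1, β-catenin, at 91.96 and 100.5 CPM (-0.13). The exception was Nectin3, an adhesion molecule, at 21.7 and 18.1 CPM (0.26). Of 11 desmosome and plakin genes 5 were measured, 2 higher and 3 lower, with a median of -0.11. Among them Plec, which links keratin filaments to junctions, was at 376 and 349 CPM (0.11), and Pkp2, a desmosomal plaque gene, at 11.1 and 14.4 CPM (-0.38), with Pkp3, of the same family, at 20.1 and 17.3 CPM (0.22). None of these genes passed 1.5-fold.

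Epithelial regulators were mostly below the filter, and mesenchymal genes were well expressed. Of 16 epithelial transcription and splicing factors only Klf4 and Klf5 were measured, and Klf5 was at 38.2 CPM in SCDi and 47.0 CPM in CTRL (-0.30). Of 12 epithelial membrane genes 3 were measured, with Itga6, the integrin subunit of hemidesmosomes, at 221 and 282 CPM (-0.35) and Itgb4, its partner there, at 5.49 and 7.38 CPM (-0.43), and St14, a membrane serine protease, at 6.10 and 5.88 CPM (0.05). Of 12 mesenchymal genes 9 were measured, 5 higher and 4 lower in SCDi, with a median of 0.05. Vim, which encodes the intermediate filament protein of mesenchymal cells, was at 1920 CPM in SCDi and 2028 CPM in CTRL, above Krt8 in either library. Zeb1, a repressor of Cdh1, was at 107 and 114 CPM (-0.09), and Snai1, another, at 30.5 and 28.2 CPM (0.11). Zeb2, also a repressor of Cdh1, was the lowest measured mesenchymal gene, at 80.2 CPM in SCDi and 102 CPM in CTRL (-0.35). S100a4, which encodes a calcium-binding protein of motile cells, was the one list gene with at least 5 CPM past 1.5-fold, at 85.6 and 57.0 CPM (0.59). With the filter at 0.2 CPM, as used for Cdh1 and Cldn4, 7.4% of 14427 genes passed 1.5-fold, 3.92% lower and 3.48% higher in SCDi. Of the lists, 47 genes remained at that filter and 8 passed 1.5-fold. Lower were Fn1 (fibronectin, 302 UMIs in SCDi and 752 UMIs in CTRL, -1.39), Grhl2, an epithelial transcription factor (-1.12), Cdh2, N-cadherin (-1.09), Lcn2 (-0.85) and Acta2 (-0.75), and higher were Tjp3 (0.79), Gata3 (0.74) and S100a4.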

How the data were processed

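The authors deposited 1 matrix of unnormalised UMI counts (genes by barcodes) per library, made with Cell Ranger 7.1.0 on mm10 per the submitters' processing notes. The annotation behind them, and any counting of introns, is not given in the sources used here. Per the labels, later steps used Seurat, whose output is not used here. Positions of 32235 genes came from GENCODE M21 by Ensembl identifier.

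Barcodes with at least 300 genes and at most 15% mitochondrial UMIs were used. Scrublet in scanpy 1.11.5 (Python 3.11.15) marked at most 0.031% as doublets, below 0.5%, so the highest scores were removed at 0.8% per 1000 barcodes. Each sort was clustered (Leiden, resolution 1.0, 2000 variable genes, 30 principal components, 20 neighbours). Immune clusters named "-like" had 3 or more markers at 2-fold. That count did not always give a name. Cluster 11 (733 cells, T cell and NK markers) and cluster 18 (168 cells, microglia markers) reached it and were left unnamed. Tumour clusters have numbers. Motifs were searched in RefSeq windows before Krt5, Krt7, Krt14, Krt18, Epcam and Cldn4, and that before Krt8 was left out.

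UMIs were summed per library, scaled by the library's kept total (CPM), and ratios taken with 0.5 counts added. Intervals are exact conditional binomial (ratios), Poisson (CPM) or Clopper-Pearson (shares). Only those of ratios were tested on simulated data, which were Poisson counts, the model these intervals assume. Thinned shares and co-detection are exact expectations over all draws, adopted after a single draw had proved noisy. Cells with fewer UMIs than the thinning depth were left out of every thinned value. Distributions of UMIs per cell, members per cell and cycling cells use 1 seeded draw. For expected cells, interval counts were rounded to whole cells. There is no test across animals.

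Members of the set and the gene lists were chosen with earlier results of these data known. Genes named are all 10 members, other keratins with at least 1 CPM in a tumour library, and the 2 highest and 2 lowest measured ratios of each list, some of which are not reported here. Further list genes were named after their values were seen.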

Additional observations from a re-analysis of the deposited data

How the results depend on the processing

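No paired analysis was possible because each group is 1 library and no replicate numbers link groups. For the same reason no replicate could be left out. Krt8, Cdh1 and Cldn4 kept a negative log2 ratio of SCDi over CTRL in 10 of 10 alternatives, from -0.12 to -0.05, -1.59 to -0.81 and -2.02 to -1.41. Cells without any Mki67 or Top2a UMI gave the only sign changes of Krt18, Krt14 and Krt19: Krt18 turned to 0.42, Krt14 to 0.96 and Krt19 to 0.18, with Krt8 at -0.093, Cdh1 at -0.81, Cldn4 at -1.41 and Krt8 to Krt18 ratios of 93.3 in SCDi and 133 in CTRL. That set is 1481 SCDi cells with a median of 2161 UMIs and 1708 CTRL cells with 27743, so depth differs within it. Taken instead from 2000 drawn UMIs per cell, chosen after seeing the data, Krt18 was -0.064 and Krt8 -0.085. Krt8 was -0.051 with median-of-ratios scaling, -0.11 as the mean of each cell's CPM (where Krt7 was 0.56, Krt14 -0.035 and Krt19 -0.47), -0.12 with its chromosome's median subtracted and -0.083 as the mean over clusters, where Krt18 was -0.45 and Cdh1 -1.59. The Krt8 to Krt18 ratio was 28 in SCDi and 25.1 in CTRL as the median over cells with Krt18. Thinned shares scale with depth: at 1000 and 5000 UMIs Krt8 gave 71.6% and 99.0% in SCDi and 74.2% and 99.0% in CTRL, and Krt18 1.45% and 5.89% in SCDi and 1.59% and 5.90% in CTRL. Krt8 in tumour over immune cells was 477-fold in SCDi under the stricter barcode filter (500 genes, 10% mitochondrial UMIs), and in CTRL 334-fold with all deposited barcodes and 333-fold without doublet removal. The cause of these shifts was not tested. Co-detection of Krt18 and Cdh1 stayed below the product of shares in every alternative run.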

Other observations

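The keratins outside the set differed in which cells and sorts held them. Krt17 was at 131 CPM (130 to 132) in SCDi and 125 CPM (124 to 126) in CTRL tumour cells, in 49.3% and 57.4% of cells, and in 16.3% (15.4 to 17.2) and 16.7% (15.8 to 17.7) after thinning to 2000 UMIs, where the intervals overlapped. At 20000 UMIs per cell its variance was 9.49 times its mean in SCDi and 11.1 times in CTRL, more uneven than Krt8. Summed over cells its log2 ratio of SCDi over CTRL was 0.07 (0.05 to 0.09), while 11 of 12 clusters were lower in SCDi and the mean over clusters was -0.54, so its direction depends on how cells are summed. Clusters 1 and 8, which hold 723 and 382 SCDi cells against 53 and 27 CTRL cells, had 354 and 439 CPM of Krt17 in SCDi. Krt16 was at 18.8 CPM in SCDi and 14.6 CPM in CTRL (log2 ratio 0.36, 0.30 to 0.42), with 6 clusters higher and 6 lower.

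Krt80, a type II keratin, was found mainly outside the tumour sort. It was at 2.29 CPM in SCDi and 2.35 CPM in CTRL tumour cells, and at 9.24 and 15.5 CPM in the immune cells. Monocyte-like cells had it in 20.8% of cells in SCDi and 24.9% in CTRL, macrophage-like cells in 14.5% and 25.7%, and NK-like cells in 0% and 0.922%. Clusters that were not named held 47.0% of the immune Krt80 UMIs in SCDi and 54.1% in CTRL.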
